A study of Mus musculus with 7 samples.

Results

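The genes described are 9 genes of thyroid hormone metabolism, transport and action in the mouse kidney, out of 24328 gene symbols measured: the deiodinases Dio1, Dio2 and Dio3, the transporters Slc16a10 and Slco1c1, the receptors Thra and Thrb, and the hormone-responsive genes Hr and Thrsp. They were taken by symbol from the normalized count of each library, and they had been chosen by their values in the comparison of LBR-null with WT kidneys. Their differences between the genotypes are therefore given as a description, with no test. The right kidney of 4-week-old C57BL/6J mice was compared between 3 LBR-null mice (Lbric-J/ic-J, homozygous for a loss-of-function allele of the lamin B receptor gene) and 1 WT littermate (Lbr+/+). The comparison asks how kidney gene expression differs when this receptor, to which the lamina and silent chromatin attach at the edge of the nucleus, is lost through the germline. There were 5 LBR-null libraries (2 of mouse 4001, 1 of mouse 4002 and 2 of mouse 4007) and 2 WT libraries (both of mouse 4009). The kidneys had been pulverized and aliquoted, and the sources used here do not say whether both libraries of a mouse came from separate aliquots, so they were averaged within the mouse. Because a single mouse was WT, the spread between WT mice is unknown, and every difference stands against the spread between LBR-null mice only.

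Thyroid hormone leaves the thyroid gland mainly as thyroxine (T4), which cells take up through membrane transporters and convert to the active triiodothyronine (T3). Deiodinases are selenoenzymes that remove iodine from the hormone: DIO1, abundant in liver and kidney, makes T3 and clears inactive forms, DIO2 makes T3 from T4 inside cells, and DIO3 inactivates both hormones. T3 acts through the nuclear receptors encoded by Thra and Thrb, which bind DNA with retinoid X receptors and raise or lower the transcription of their targets, among them Dio1 itself.

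The members lie on 7 chromosomes in the mm9 build of the mouse genome, by the GENCODE M1 gene models. Dio1 lies on the minus strand of chromosome 4 at chr4:106964070-106979774. Dio2 (chr12:91962994-91976878, minus strand) and Dio3 (chr12:111517278-111519307, plus strand) share chromosome 12 but are not neighbours. Slc16a10 lies at chr10:39753341-39862062 on the minus strand and Slco1c1 at chr6:141472907-141518241 on the plus strand. Thra lies at chr11:98601952-98630320, and Thrb (chr14:18493474-18870602) and Hr (chr14:70952019-70973355) share chromosome 14, all 3 on the plus strand. Thrsp lies at chr7:104561448-104566240 on the minus strand.

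The study sorts genes by whether a CpG island lies at their start, so the promoters of the 4 members with the widest relative differences between genotypes are shown. Each is the window from 250 bases before to 50 bases after the transcription start from RefSeq on GRCm38.p6, 5′ to 3′ on the strand of the gene, with CpG dinucleotides in capitals. The windows lie at chr4:107307119-107307418 (Dio1, minus strand), chr12:90738989-90739288 (Dio2, minus strand), chr12:110278980-110279279 (Dio3, plus strand) and chr6:141524104-141524403 (Slco1c1, plus strand).
Dio1: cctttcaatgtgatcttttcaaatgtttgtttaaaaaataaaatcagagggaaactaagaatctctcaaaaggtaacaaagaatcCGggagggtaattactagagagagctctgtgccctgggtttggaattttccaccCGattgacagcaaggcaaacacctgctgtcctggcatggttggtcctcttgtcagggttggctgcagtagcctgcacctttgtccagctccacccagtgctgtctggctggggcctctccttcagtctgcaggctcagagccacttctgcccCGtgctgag
Dio2: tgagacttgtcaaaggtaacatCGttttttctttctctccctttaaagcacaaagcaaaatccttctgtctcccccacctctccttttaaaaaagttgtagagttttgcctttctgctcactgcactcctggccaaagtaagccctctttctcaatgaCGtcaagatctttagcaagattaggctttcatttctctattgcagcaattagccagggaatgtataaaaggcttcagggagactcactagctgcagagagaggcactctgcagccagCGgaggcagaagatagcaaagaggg
Dio3: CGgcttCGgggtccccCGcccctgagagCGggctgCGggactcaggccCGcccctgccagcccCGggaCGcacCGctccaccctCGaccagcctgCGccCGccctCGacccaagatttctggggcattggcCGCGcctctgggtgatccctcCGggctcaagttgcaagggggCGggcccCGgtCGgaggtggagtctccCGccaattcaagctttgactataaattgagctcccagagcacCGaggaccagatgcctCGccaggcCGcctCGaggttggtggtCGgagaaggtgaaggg
Slco1c1: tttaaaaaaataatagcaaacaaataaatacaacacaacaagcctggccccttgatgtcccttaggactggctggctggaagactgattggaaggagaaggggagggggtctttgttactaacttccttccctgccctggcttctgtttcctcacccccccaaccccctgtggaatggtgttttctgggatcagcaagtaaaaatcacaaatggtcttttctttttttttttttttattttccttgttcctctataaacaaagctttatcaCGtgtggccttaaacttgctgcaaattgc

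The Dio3 window held 25 CpG and the Dio1, Dio2 and Slco1c1 windows held 3, 3 and 1, against a median of 7 over 32851 windows of the same length. RefSeq windows were matched for 7 of the 9 members. The windows of Dio3, Slc16a10 (26 CpG) and the upstream start of Thrb (37 CpG) had at least 50% GC and more than 0.6 of the CpG number that their base content predicts, limits that 33.4% of all windows met. The windows of Dio1, Dio2, Slco1c1, Thrsp (4 CpG) and the second start of Thrb (4 CpG) did not. Letters of the thyroid hormone receptor motif were also sought on both strands. The single unit AGGTCA was found in 1 of the 8 windows of the members, at the upstream start of Thrb, and in 16.3% of all windows. The direct repeat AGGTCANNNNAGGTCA, which contains that unit, was found in none of them and in 0.0152% of all windows.

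Each library held 20694016 to 26333284 reads on genes, and 1 read was worth 0.787 to 1.15 normalized counts. Kidney markers were abundant in all libraries, with summed normalized counts of 134380 to 179210 (LBR-null) and 192580 to 193465 (WT) for 10 proximal tubule genes. Lbr itself was read at 314 to 495 normalized counts in the LBR-null and 381 to 416 in the WT libraries, so its RNA level did not separate the genotypes. The labels give no sex. Xist, the RNA of the inactive X chromosome, stood at 5352 to 10163 in the libraries of mice 4001 and 4007, at 65.3 in mouse 4002 and at 31.7 to 39.4 in WT, and the Y-linked Ddx3y stood at 39.2 to 149, at 1516 and at 1269 to 1299. Mouse 4002 is thus the LBR-null mouse that is near the WT mouse in both, and its own values are given beside the members.

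Dio1 RNA was nearly lost from LBR-null kidneys, Dio2 RNA was 26.4% of the WT level, and Dio3 RNA was higher. Slco1c1 was also higher, Hr was lower, and the receptors Thra and Thrb and the transporter Slc16a10 differed from WT by less than 2-fold. By the average over mice, 3 of the 9 members (Dio1, Dio2 and Hr) were at least 2-fold lower in LBR-null kidneys, where 8.80% of the 21468 genes read in either group were. Another 2 (Dio3 and Slco1c1) were at least 2-fold higher, where 22.7% of all genes were. All 5 LBR-null libraries lay below both WT libraries for 5 members (Dio1, Dio2, Slc16a10, Hr and Thrsp), against 21.4% of all genes, and above them for 3 members (Dio3, Slco1c1 and Thra), against 22.2%. Since the members were chosen by this contrast, nothing is read from these shares. On the log2 scale the median difference over the 9 members was -0.53, beside 0.01 over all 17283 genes with a mean of at least 5. In pulverized tissue, fewer cells of a type and less RNA per cell cannot be told apart.

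**Figure D1:**
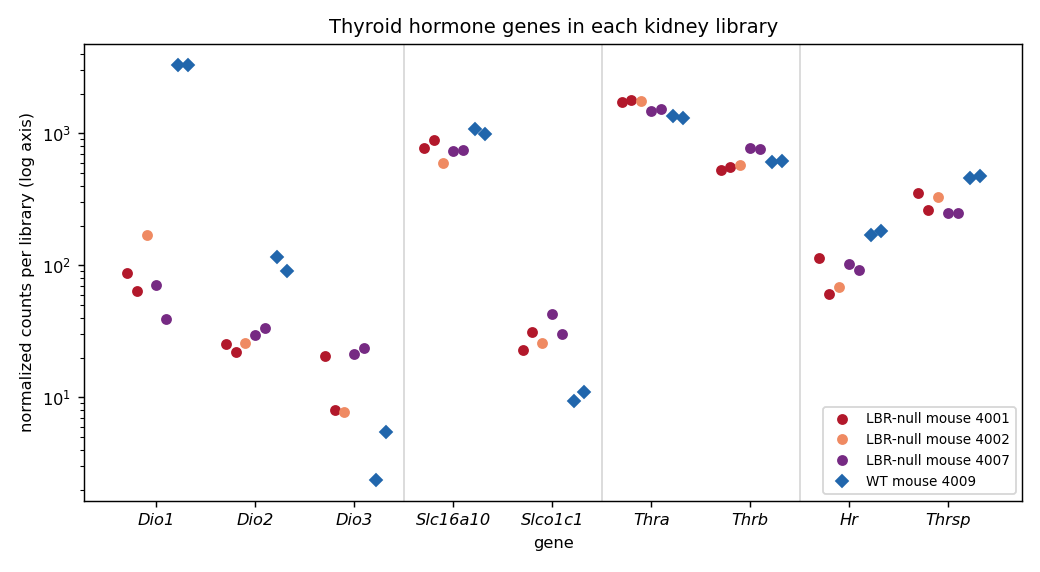
Normalized counts (vertical axis, log scale) of the 9 members (horizontal axis) in each of the 5 LBR-null libraries (circles, coloured by mouse) and the 2 WT libraries (diamonds). Dio1 lies between 39.2 and 170 in the LBR-null libraries and at 3283 and 3315 in WT, whereas the values of Thrb overlap between the genotypes.

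Dio1 encodes the deiodinase that is typical of kidney. Its reads came to 87.3 and 63.9 normalized counts in mouse 4001, 170 in mouse 4002, and 70.8 and 39.2 in mouse 4007, against 3315 and 3283 in the WT mouse. No LBR-null library came near WT, and mouse 4002 was the highest of the LBR-null mice. The average was 100 ± 61.5 (SD, n = 3 mice) against 3299, or 32.9-fold lower, and the mice kept 2.29%, 5.16% and 1.67% of the WT level. The log2 difference was -5.19 ± 0.83 and was the third lowest among 14637 genes with a mean of at least 20. These values rest on 43 to 198 reads in each LBR-null library and on 7839 reads in WT. In mouse 4002, which resembles WT in Xist and Ddx3y, the log2 difference was -4.27.

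Dio1 is transcribed in the proximal tubule, and markers of that segment moved with it in part. Of the 10 proximal tubule genes, 6 were at least 2-fold lower in LBR-null kidneys and 1 was at least 2-fold higher, and their summed level was 134380 to 179210 against 192580 to 193465. The organic anion transporter gene Slc22a6 averaged 409 ± 126 normalized counts against 7282 in WT, while Aqp1 (27527 against 17029) and Slc27a2 (74463 against 51706) were higher in all LBR-null libraries. None of the 10 was at 0 in any library. The part of tubule composition in the Dio1 difference was not tested.

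Dio2 encodes the deiodinase that makes T3 inside cells. Normalized counts were 25.3 and 22.2 in mouse 4001, 25.8 in mouse 4002, and 29.8 and 33.7 in mouse 4007, against 115 and 90.5 in WT. The 5 LBR-null libraries lay close together and all below WT. The average was 27.1 ± 4.17 against 103, which is 3.79-fold lower, with a log2 difference of -1.89 ± 0.21 and 22 to 37 reads per LBR-null library. Each mouse kept between 23.1% and 30.9% of the WT level, so the spread between mice was far narrower than for Dio1. By the gene models, 100 exonic bases of Dio2 overlap the opposite-strand Gm16738, which has no value in these data.

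Dio3 encodes the deiodinase that inactivates T4 and T3. Mouse 4001 gave 20.7 and 7.99 normalized counts, mouse 4002 gave 7.74 and mouse 4007 gave 21.4 and 23.7, against 2.36 and 5.43 in WT. All LBR-null libraries lay above WT, but mouse 4002 and 1 library of mouse 4001 were near the higher WT value. The averages were 14.9 ± 7.43 and 3.90 normalized counts, or 3.82-fold higher, with a log2 difference of 1.58 ± 0.72. WT held only 3 and 6 reads. The ratio of the summed reads was 4.21 with an exact 95% binomial interval of 2.12 to 9.52. This interval pools the mice, covers counting error only and is no test, since Dio3 was chosen by this contrast. Mouse 4002 stood at 199% of WT and so just missed the 2-fold limit by itself, while mice 4001 and 4007 stood at 368% and 579%.

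The long noncoding RNA Dio3os is transcribed from the opposite strand 1000 bases from Dio3. By the GENCODE models its gene does not overlap Dio3. It was read at 149, 126, 80.0, 195 and 236 normalized counts in the LBR-null libraries (mice 4001, 4001, 4002, 4007 and 4007) and at 22.8 and 23.5 in WT. Its log2 difference was 2.47 ± 0.71, in the same direction as Dio3 in all 3 mice and with the lowest value again in mouse 4002. Dio3os lies beside Dio3 but was not a member, and it was named after its values were seen.

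Per kilobase of exon, Dio1 made up 98.8% and 98.9% of the deiodinase reads of the WT libraries, as the plot of deiodinase shares shows. In the LBR-null libraries it made up 75.3% and 80.7% (mouse 4001), 91.3% (mouse 4002), and 69.6% and 53.2% (mouse 4007). The share of Dio3 was 0.0683% and 0.159% in WT and 4.03% to 31.2% in LBR-null kidneys. That of Dio2 was 0.924% to 1.16% and 4.69% to 15.5%, although its own level was lower. Dio1 remained the deiodinase with most reads per kilobase in each library.

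**Figure D2:**
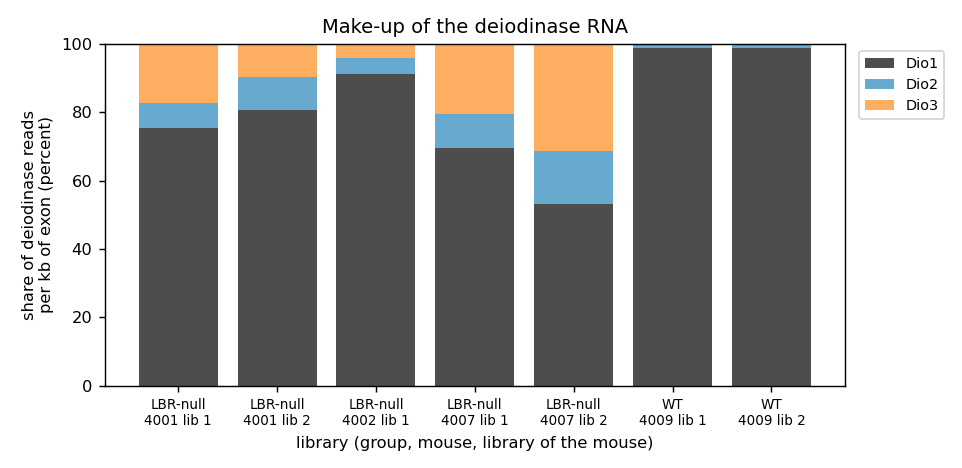
Share of Dio1, Dio2 and Dio3 (percent, vertical axis) in the deiodinase reads per kilobase of exon of each library (horizontal axis, with its group and mouse). Dio1 takes 98.8% and 98.9% in WT and between 53.2% and 91.3% in the LBR-null libraries, where the Dio3 share is widest in mouse 4007.

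Among the transporters, Slc16a10 encodes a carrier of aromatic amino acids that also moves thyroid hormone. It was read at 776 and 894 normalized counts in mouse 4001, 592 in mouse 4002, and 730 and 755 in mouse 4007, against 1075 and 993 in WT. All LBR-null libraries were lower than WT, by a modest margin. The average of 723 ± 123 was 69.9% of the WT level of 1034, and the log2 difference was -0.53 ± 0.25, strongest in mouse 4002 (-0.80).

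Slco1c1 encodes an organic anion transporter with high affinity for T4, best known from the vessels of the brain. Its level was 23.0 and 31.1 normalized counts in mouse 4001, 25.8 in mouse 4002, and 42.8 and 30.1 in mouse 4007, against 9.45 and 10.9 in WT. The LBR-null libraries all lay above WT. The average of 29.8 ± 5.84 was 2.93-fold the WT value of 10.2, with a log2 difference of 1.45 ± 0.26. The gene was low in both groups, with 12 reads in each WT library. The ratio of summed reads was 3.04 (exact 95% binomial interval 1.98 to 4.89, counting error only and, as for Dio3, no test). In mouse 4002 alone the level was 254% of WT.

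Neuronal, endothelial and neutrophil marker genes were read beside Slco1c1 and Dio3. All 5 neuronal genes were at least 2-fold higher on average in LBR-null kidneys, where 22.7% of all genes were, and for 4 of them no libraries overlapped. Their summed levels were 202 to 245 against 55.2 to 78.0 normalized counts, with none at 0. Other lists rose too, with 4 of 6 adrenal cortex genes and 4 of 6 skeletal muscle genes at least 2-fold higher. The 4 endothelial genes were within 2-fold of WT, with summed levels of 10655 to 12996 against 13202 to 13256. All 7 neutrophil genes read were at least 2-fold higher on average. Their summed levels were lowest in mouse 4002 (396) and highest in mouse 4007 (2483 and 2600), as for Dio3, against 76.9 to 84.3 in WT. The part of any of these cell types in the Slco1c1 and Dio3 differences was not tested.

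The receptor genes differed little. Thra was read at 1722 and 1802 normalized counts in mouse 4001, 1763 in mouse 4002, and 1485 and 1533 in mouse 4007, against 1344 and 1317 in WT. The LBR-null libraries all exceeded WT. The average was 1678 ± 146 against 1331, 1.26-fold, and the log2 difference was 0.33 ± 0.13. The end of Thra overlaps the opposite-strand Nr1d1, a repressor of the circadian clock, by 263 exonic bases. How the counting treated strand is not given in the sources used here, so reads of the overlap cannot be told apart. Nr1d1 itself was read at 1801 to 2483 in LBR-null and 2205 to 2206 in WT libraries, with a log2 difference of -0.07 ± 0.18.

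Thrb was read at 530 and 556 normalized counts in mouse 4001, 578 in mouse 4002, and 778 and 760 in mouse 4007, against 607 and 622 in WT. It is the only member whose libraries overlapped between the genotypes. Mouse 4007 lay above WT (125%), and mice 4001 (88.4%) and 4002 (94.0%) lay below. The average was 630 ± 121 against 615, and the log2 difference was 0.02 ± 0.27.

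Of the responsive genes, Hr encodes a nuclear corepressor that binds thyroid hormone receptors and is itself a target of T3 in brain. The LBR-null values were 114 and 60.3 normalized counts in mouse 4001, 68.8 in mouse 4002, and 103 and 93.0 in mouse 4007, against 169 and 181 in WT. All LBR-null libraries were below WT, and the libraries of mouse 4001 differed 1.88-fold from each other. The average of 84.7 ± 14.8 against 175 was 2.06-fold lower, barely past the 2-fold limit, and the log2 difference was -1.05 ± 0.26. Without mouse 4002, without library 2 of mouse 4001 or without library 2 of the WT mouse, Hr no longer reached 2-fold, and 2 rather than 3 members were lower.

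Thrsp, also known as Spot 14, encodes a protein that promotes fatty acid synthesis and is induced by T3 in liver and fat. It was read at 354 and 262 normalized counts in mouse 4001, 328 in mouse 4002, and 250 and 249 in mouse 4007, against 461 and 472 in WT. The LBR-null libraries all lay below WT without reaching 2-fold on average. The average was 295 ± 41.1 against 467, 1.58-fold lower, and the log2 difference was -0.67 ± 0.21. Of the members short of 2-fold, Thrsp (1.58-fold lower) and Thra (1.26-fold higher) came nearest to the limit in each direction. Of those past it, Hr (2.06-fold lower) and Slco1c1 (2.93-fold higher) were nearest.

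**Figure D3:**
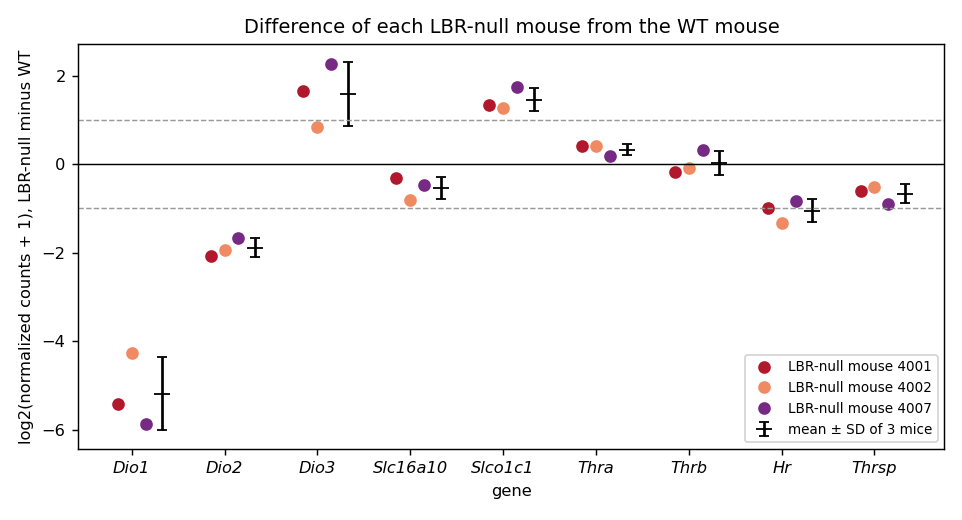
Difference of log2(normalized counts + 1) between each LBR-null mouse and the WT mouse (vertical axis) for the 9 members (horizontal axis), with the mean and SD over 3 mice in black and dashed lines at 2-fold. Dio1 lies at -4.27 to -5.88 in the 3 mice, and the mice fall on both sides of 0 for Thrb only.

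Levels were compared between members per kilobase of exon of the GENCODE models, which need not be those used by the authors. In WT, Dio1 was the highest at 1675 normalized counts per kilobase, followed by Thrsp (366), Thra (288), Slc16a10 (168) and Thrb (92.8). Hr (25.3), Dio2 (17.7), Slco1c1 (3.73) and Dio3 (1.92) were low. In LBR-null kidneys the order of these levels began with Thra (364 ± 31.7), Thrsp (231 ± 32.2) and Slc16a10 (118 ± 20.0), and Dio1 (50.9 ± 31.2) followed Thrb (95.1 ± 18.3). It ended with Hr (12.2 ± 2.14), Slco1c1 (10.9 ± 2.15), Dio3 (7.33 ± 3.66) and Dio2 (4.66 ± 0.718). The values of the 3 mice overlapped between Slc16a10 and Thrb, between Thrb and Dio1, and between neighbours among the last 4 members. They did not overlap between Thra and Thrsp, between Thrsp and Slc16a10, or between Dio1 and Hr.

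The genes most like Dio1 over the 7 libraries, by Pearson's r of log2(normalized counts + 1) among 14637 genes, were Tyms, Tbc1d19, St8sia1, Myo5a and Mogat2, with r from 0.9959 to 0.9965. All were lower in LBR-null kidneys, from St8sia1 (51.1 ± 20.6 against 713) to Myo5a (701 ± 43.9 against 1173). For Slco1c1 they were Jade1, Uhrf1bp1l, Fam135a, Shisa9 and Brdt, with r from 0.9890 to 0.9942, all higher in LBR-null kidneys. With 7 libraries of 4 mice such values mostly restate the split between the genotypes, and r exceeded 0.9 for 1455 genes against Dio1 and 826 against Slco1c1.

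Other genes of hormone handling and action were read in 5 lists of 71 genes, of which 67 were abundant enough to test. By limma with Benjamini-Hochberg adjustment over all 17283 genes, none passed an adjusted p of 0.05 with a 2-fold difference, as for 0% of all genes. At an unadjusted p under 0.05, 13 were lower (8.05% of all genes were) and 5 were higher (10.7%). The edgeR quasi-likelihood test on recovered reads called 0 of the 67, where it called 0.156% of all genes lower and 0.00579% higher. DESeq2 on the same reads called 10 lower and 5 higher, against 3.48% and 3.24% of all genes, so the calls given next are those of DESeq2. Without mouse 4001, limma called 8 lower and 1 higher, where it called 3.83% of all genes lower and 2.94% higher. Without mouse 4002 it called 5 lower and 1 higher, where it called 1.66% and 1.96% of all genes, with Slc10a1, Me1 and Fasn among those lower and Sult1a1 higher both times. The median log2 difference over the 67 genes was 0.05. The lists were chosen with earlier results of these data known, and limma was the main test. With all mice kept only DESeq2 made calls, so its calls and adjusted p below are a description from which no conclusion is drawn.

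Among the 15 other transporters, DESeq2 called 2 lower and none higher. One called lower was Slc10a1, a bile acid carrier that also takes up thyroid hormone, which averaged 42.6 ± 15.3 against 456 (log2 difference -3.46 ± 0.59, DESeq2 adjusted p 7.42e-09, limma 0.0869). The heteromeric transporter subunit gene Slc7a8 averaged 2455 ± 136 against 4840 normalized counts, just short of 2-fold. Slco1b2, a transporter of the liver, averaged 41.7 ± 35.2 against 11.3, with its high values in mouse 4001 (108 and 56.8), and passed no test. Markers of liver moved with it: 5 of 7 were at least 2-fold higher, with summed levels of 14106 to 33188 against 9067 to 9085, highest in mouse 4001 and none at 0, and their part in the difference was not tested.

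Genes of hormone binding and conjugation (14 in all) were called in both directions by DESeq2, with 2 lower and 2 higher. Crym encodes a cytosolic protein that binds T3, and averaged 177 ± 16.4 against 533 (log2 difference -1.59 ± 0.13, DESeq2 adjusted p 0.000145, limma 0.0942). The sulfotransferase genes Sult1a1 and Sult1b1, whose enzymes conjugate phenolic compounds including thyroid hormone, averaged 4113 ± 750 against 1134 and 333 ± 156 against 99.8. Their log2 differences were 1.84 ± 0.27 (DESeq2 adjusted p 1.16e-05, limma 0.0906) and 1.62 ± 0.69 (DESeq2 adjusted p 0.0337, limma 0.176). The other gene called lower was Sult1c2 (-1.06 ± 0.23), which in mouse 4002 was short of 2-fold (-0.88).

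Deiodinases need selenocysteine, and none of the 6 genes of selenoprotein synthesis was called by any tool or reached 2-fold. Secisbp2, which reads the selenocysteine signal in RNA, averaged 733 ± 121 against 724. Of 16 receptor partners and coregulators, 1 was called higher by DESeq2, the coactivator gene Ppargc1a (log2 difference 1.05 ± 0.27), and none lower. In mouse 4002 the log2 difference of Ppargc1a was 0.99, just short of 2-fold. Rxra, the partner of both receptors, averaged 3515 ± 872 against 2233, with 2509 in mouse 4002 and 3969 to 4105 in the other LBR-null libraries. The corepressor gene Ncor1 averaged 5032 ± 537 against 5184.

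Of 20 other responsive genes, DESeq2 called 6 lower and 2 higher. Those called lower included genes of lipid synthesis, namely Me1 (malic enzyme, 1115 ± 287 against 5347), Fasn (fatty acid synthase, 826 ± 147 against 2834) and Scd1 (stearoyl-CoA desaturase, 516 ± 290 against 1997). Their log2 differences were -2.30 ± 0.40, -1.79 ± 0.25 and -2.09 ± 0.75, with limma adjusted p of 0.0843, 0.0897 and 0.123. The phosphate transporter gene Slc34a1, which is also among the proximal tubule markers, and the uncoupling protein gene Ucp2 were also called lower (-1.67 ± 0.51 and -1.30 ± 0.44). In mouse 4002 the log2 differences of these 2 genes were -1.14 and -0.85, the latter short of 2-fold. Called higher were Klf9, a transcription factor gene induced directly by T3 (9338 ± 1006 against 4528, DESeq2 adjusted p 0.0153, limma 0.137), and Pck1, a gene of glucose synthesis (log2 difference 1.59 ± 0.59, limma adjusted p 0.291). In mouse 4002 the log2 differences were 0.90 for Klf9, short of 2-fold, and 1.16 for Pck1. Most markers of adipocytes were lower beside Dio2, Thrsp and the lipid genes. At least 2-fold lower were 6 of the 8 markers, among them Adipoq (13.3 against 120), Plin1 (7.23 against 81.5) and Ucp1 (24.7 against 375). The sum of all 8, dominated by Fabp4, was 5121 to 8998 against 7035 to 7157, with none at 0. Their part in these differences was not tested.

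**Figure D4:**
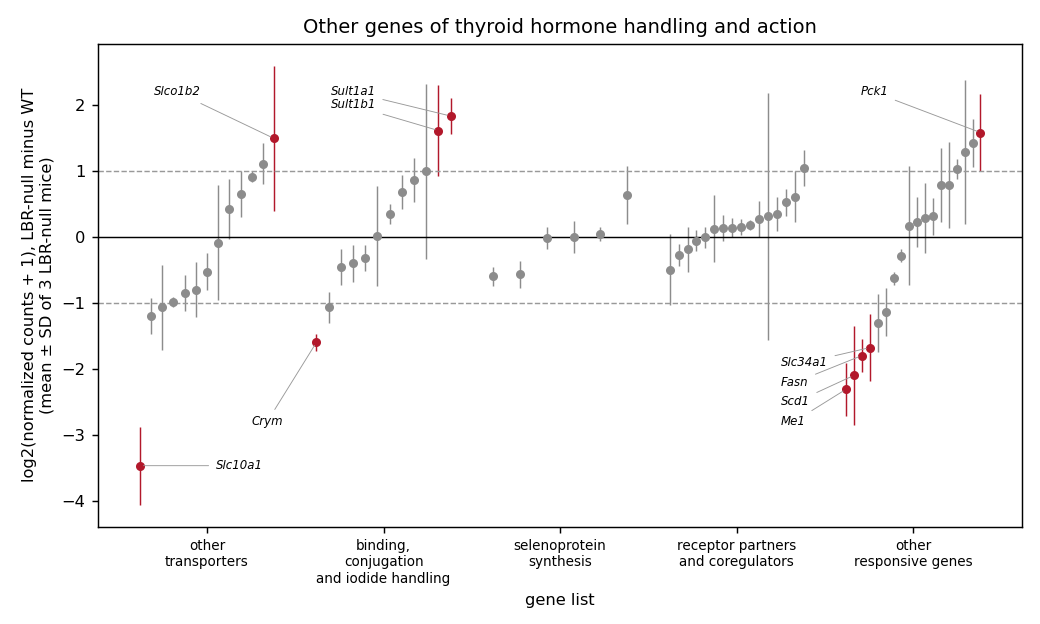
Difference of log2(normalized counts + 1) between LBR-null and WT (vertical axis, mean and SD over 3 LBR-null mice) for 65 genes in 5 lists (horizontal axis), with 10 of the widest differences whose libraries do not overlap named and in red and dashed lines at 2-fold. Selenoprotein synthesis lies within 2-fold throughout, and the most negative differences are Slc10a1 (-3.46), Me1 (-2.30) and Scd1 (-2.09).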

How the data were processed

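Polyadenylated RNA of 7 libraries from 4 mice had been sequenced in 150-base paired-end reads. The submitters' processing notes name STAR 2.6.0, DESeq2 1.25.1 and mm9. The authors deposited 1 signal per gene symbol and library, the read count divided by the DESeq2 size factor. The counter and its strand setting are not given in the sources used here. All values were whole multiples of 1 read within 0.01 read (100% of values), so reads were recovered.

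Members and lists were chosen with earlier results of these data known. Libraries were averaged within a mouse. The 2-fold calls used averages over mice, and log2 differences used log2(mouse mean + 1), with the SD over 3 LBR-null mice. Other pathway genes were tested with limma 3.58.1 (eBayes with trend, R 4.3.3, mean of at least 5, adjusted p of 0.05, 2-fold, 2 residual degrees of freedom), edgeR 4.0.16 and DESeq2 1.42.0. DESeq2 left 671 genes without an adjusted p. With 1 WT mouse, the fits assume that it varies as the LBR-null mice do. The fitting code was tested on simulated data. Named were all members, up to 12 other genes with the widest differences of at least 2-fold and no overlap of libraries, a fixed set (Slc7a8, Rxra, Ncor1, Klf9, Secisbp2 and Nr1d1, among others), and the 5 genes most like the members with the largest fall and rise among those with a mean of at least 20. Other genes (markers, Dio3os, Sult1c2, Ppargc1a and Ucp2) were named to complete a small count or a check, after their values were seen. Values of 2 genes that the rule names are not reported here, though the counts include them.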

Additional observations from a re-analysis of the deposited data

How the results depend on the processing

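Under the 15 alternatives of each member (TMM scaling, equal totals, pseudocounts, the log2 of the average, each mouse or library left out, and mouse 4002 alone), 131 of 135 log2 differences stayed within 1 SD. The other 4 were those of mouse 4002 alone for Dio1 (-4.27), Dio3 (0.84), Slc16a10 (-0.80) and Hr (-1.33). The log2 difference of Thrb was below 0 under TMM scaling (-0.01), without mouse 4007 (-0.13) and in mouse 4002 alone (-0.09), and the other members kept their sign. Scaling moved the median of all genes to between -0.02 and 0.01. The count of members 2-fold lower was 2 to 3 with a mouse or library left out, losing only Hr, and that of members 2-fold higher was 2 throughout, but 1 (Slco1c1) in mouse 4002 alone, since Dio3 fell short. Among the other pathway genes limma called 0 either way under scaling, filter and pseudocount alternatives, 0 to 8 lower and 0 to 1 higher with a mouse or library left out (above 0 only without mouse 4001 or mouse 4002), and DESeq2 called 10 lower and 5 higher. The cause of these changes was not tested. No paired analysis was possible because the replicate numbers in the labels count the libraries of a group, some of them from the same mouse, and averaging leaves 1 WT mouse. Depth limits Dio3 and Slco1c1, with 9 and 24 WT reads in all.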

Other observations

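Genes best known from the thyroid gland were also read in kidney, and none of them passed a test by limma, edgeR or DESeq2. These genes were named after their values were seen. Tshr, the receptor for thyrotropin, averaged 168 ± 29.0 normalized counts in LBR-null mice (SD, n = 3) against 103 in the WT mouse, with all 5 LBR-null libraries above both WT libraries. Iyd, which recovers iodide from iodotyrosines, averaged 732 ± 150 against 950, and Slc26a4, the anion exchanger pendrin, averaged 2311 ± 425 against 3129, both with all LBR-null libraries below WT. The iodide transporter gene Slc5a5 (18.3 ± 1.96 against 14.0) and the thyroglobulin gene Tg (7.05 ± 1.13 against 8.91) were low and overlapped. The plasma carrier genes Ttr (3258 ± 1401 against 2968) and Alb (4183 ± 3978 against 1565) overlapped as well, and the spread of Alb between LBR-null mice exceeded its difference from WT. The plasma carrier gene Serpina7 did not overlap: it averaged 32.3 ± 7.24 against 16.9, with all 5 LBR-null libraries above both WT libraries.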
